A study of Mus musculus with 12 samples.

Results

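Chaperone and protein folding genes were examined in the mouse hippocampus 1 h after an injection of saline or of kainate, a glutamate receptor agonist that can induce seizures. The genes were all those on the array whose platform symbol marks a J protein (Dnaja, Dnajb, Dnajc), a heat shock protein, a chaperonin subunit, a BAG cochaperone, a protein disulfide isomerase, an FKBP or a cyclophilin. Of 43 such genes with 66 probe sets, 31 genes had a probe set over 4 on the log2 scale in at least 3 of 12 arrays, among 6334 probe sets that met this level in all. The 31 are part of 4617 tested genes. Where a gene had several probe sets, as 14 of the 31 did (9 with more than 1 over the level), its values are those of the brightest on average. Control and mutant mice were littermates of both sexes aged 5 to 6 weeks, and each array carried hippocampal RNA pooled from 3 animals. The animals of all groups were handled for 5 days. There were 3 arrays in each of 4 groups, namely controls and labelled mutants, each given saline or 20 mg/kg kainate by intraperitoneal injection. The series title names the loss of the transcription factors CREB and CREM. Nothing in the labels gives the alleles, the cells that carry the loss or the genotype of the controls, which is why the arrays are called labelled mutant.

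Chaperones bind unfolded proteins and help them to reach or keep their shape. Hsp70 proteins do this in cycles of ATP hydrolysis, which J proteins start at particular substrates or membranes and which BAG and Hsp110 proteins help to end by exchanging the nucleotide. Small heat shock proteins hold unfolded proteins without ATP, and FKBPs and cyclophilins turn proline bonds. Heat and other proteotoxic stress raise a subset of these genes through the heat shock factor HSF1, and neurons use specialised J proteins such as the synaptic vesicle protein of Dnajc5.

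The values are the authors' GCRMA summaries in log2 units, so a difference of 1 is a 2-fold change, and 3 arrays per group limit the precision. Array medians lay between 3.77 and 4.07. The arrays labelled replicate 1 stood apart on the first principal component (52.8% of the variance), with scores from -32.2 to -22.9 against 7.66 to 22.9 for the other 8 arrays. Their Gapdh signal, 3′ minus 5′ control probe set, ran from -0.42 to -0.36 against -0.33 to -0.03 in the others. The same measure for beta-actin did not set them apart (1.44 to 1.74 against 1.51 to 1.82). Of the 31 genes, only Dnajc21 lay above and only Bag3 below all other arrays in all 4 arrays numbered 1 (3.23% each, against 12.1% and 7.29% of all probe sets tested). All 6 measured principal neuron markers of 13 listed were over the level, and the mean of 5 kainate response genes was 6.41 to 6.42 in control saline arrays and 8.29 to 8.55 in control kainate arrays. In labelled mutants that mean was 6.07 to 6.39 with saline and 8.18 to 8.67 with kainate. These 5 genes were listed with earlier results of these data known, so their rise is a description and no independent check. Over both treatments labelled mutant arrays exceeded controls by 0.94 in the Creb1 probe set, which was thus higher rather than lower (limma adjusted p = 0.0502, with the block on replicate number 0.00413), and the place of its probes relative to a deletion is not known here.

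Labelled mutant arrays differed from control arrays in 1 folding gene, or in 2 with the replicate number as a block. Averaged over saline and kainate, Dnajb4, a cytosolic class B J protein that partners Hsp70, was lower by 0.46 on the log2 scale (1.38-fold, SE 0.0768, limma adjusted p = 0.042). Hspb6, the small heat shock protein known as Hsp20, was 2.09-fold higher (log2 difference 1.06, SE 0.186), with an adjusted p of 0.0507, and passed with the replicate number as block (adjusted p = 0.0138). Dnajb4 passed with the block too (adjusted p = 0.0164). Without the block 1 of 31 genes passed, against 0.253% of all 6334 probe sets, and with it 2 of 31, against 2.32%.

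In the individual arrays, numbered 1 to 3, Dnajb4 read 8.71, 8.73 and 8.61 with saline in controls and 8.20, 8.27 and 8.38 in labelled mutants. After kainate it read 9.14, 8.97 and 8.84 in controls and 8.37, 8.51 and 8.503 in labelled mutants. Every labelled mutant array lay below every control array, which was so in this direction for 0.663% and in either direction for 0.995% of all probe sets. The difference was -0.40 (SE 0.109) with saline and -0.52 (SE 0.109) with kainate, and taken alone neither passed (adjusted p = 0.549 and 0.285). In bulk tissue, fewer cells of a type and less RNA per cell cannot be told apart.

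The Dnajb4 call was narrow. It ended in all 13 fits that left out 1 array or all arrays numbered 1, where the difference stayed between -0.50 and -0.37 and the adjusted p between 0.0605 and 0.145. It also ended without the filter on dim probe sets (adjusted p = 0.0983), with quantile normalization (0.0557) and with each array centred on its median (0.0896), at differences of -0.46, -0.45 and -0.46.

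Hspb6 read 5.31, 4.96 and 4.99 in control saline arrays and 5.24, 5.08 and 5.09 in control kainate arrays. In labelled mutants it read 6.43, 5.77 and 5.17 with saline and 6.32, 6.66 and 6.69 with kainate. The kainate groups did not overlap, while the saline replicate 3 of labelled mutants (5.17) lay inside the control range. The difference was 0.70 (SE 0.263, adjusted p = 1) with saline and 1.42, or 2.67-fold (SE 0.263, adjusted p = 0.278, with the block 0.0545) with kainate. Without the arrays numbered 1, Hspb6 passed over both treatments (1.04, adjusted p = 0.00927, 0.726% of all probe sets) and with kainate (1.59, adjusted p = 0.021, 0.189% of all). Leaving out replicate 1 or replicate 3 of labelled mutant saline alone also let it pass with kainate (adjusted p = 0.0229 and 0.0428). Over both treatments it passed without that replicate 3 (1.22, adjusted p = 0.0148) and not in the other 11 such fits. Other settings that let it pass over both treatments were quantile normalization (adjusted p = 0.0425), a level of 5 (0.0445) and no intensity trend (0.0494).

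Cell type markers also differed in range between the groups. The mean log2 level of 6 measured astrocyte markers was 9.38 to 9.59 in control saline, 9.31 to 9.38 in control kainate, 9.68 to 9.87 in labelled mutant saline and 9.52 to 9.63 in labelled mutant kainate arrays. That of 3 measured microglia markers ran in the same order of groups from 5.09 to 5.38, 5.39 to 5.59, 5.67 to 6.17 and 6.20 to 6.48. That of the 6 principal neuron markers ran from 8.46 to 8.67, 8.52 to 8.66, 8.02 to 8.37 and 8.19 to 8.34. The members of a list did not all move alike. By group means, Bcl11b, Fibcd1, Neurod2 and, slightly, Zbtb20 were lower in labelled mutants with either treatment. Slc17a7 was higher there with saline (10.78 against 10.70) and Calb1 with kainate (7.22 against 7.06). The astrocyte marker Aldoc was lower in labelled mutants with kainate (3.88 against 4.07). Aldoc was dim, with a mean of 3.94 over the 12 arrays. The part of all these markers in the differences of Dnajb4 and Hspb6 was not tested.

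**Figure D1:**
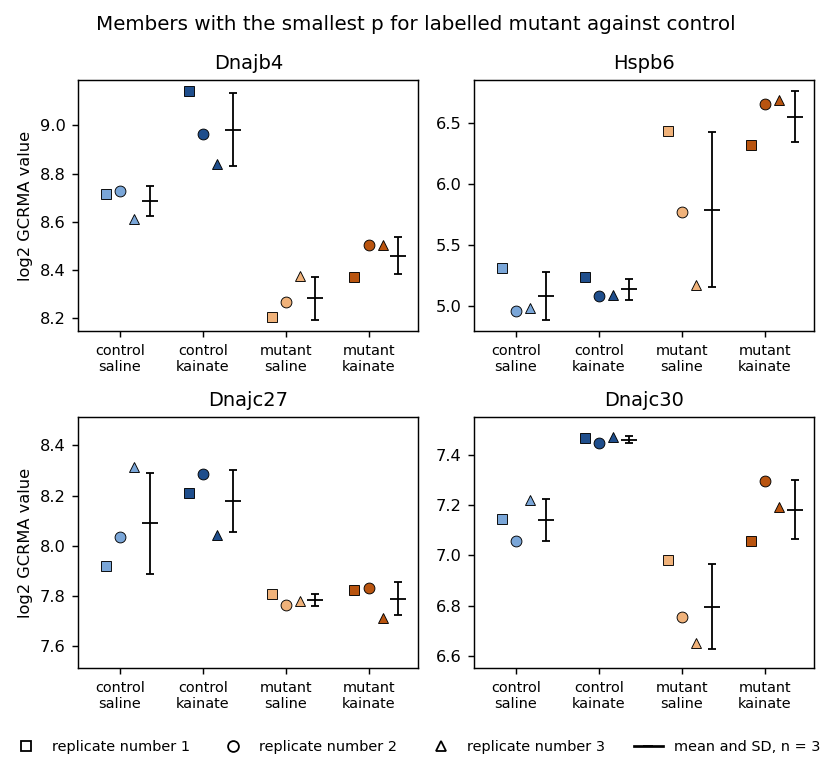
Log2 GCRMA values of Dnajb4, Hspb6, Dnajc27 and Dnajc30 in each of the 12 arrays by group (mutant: labelled mutant), with symbols for the replicate number and a bar for the mean and SD of 3 arrays; each panel has its own axis. For Dnajb4 and Dnajc27 all 6 labelled mutant arrays lie below all 6 control arrays, and Hspb6 spans 5.17 to 6.43 in labelled mutant saline arrays.

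Next by p-value among the 31 genes came Dnajc27 and Dnajc30, which did not pass. Dnajc27, a small GTPase of the Ras superfamily with a J domain, read 7.92, 8.03 and 8.31 with saline and 8.21, 8.29 and 8.04 with kainate in controls. Labelled mutant arrays read 7.81, 7.76 and 7.78 with saline and 7.82, 7.83 and 7.71 with kainate. These groups did not overlap either, at a difference of -0.35 over both treatments (1.27-fold, SE 0.0868, adjusted p = 0.2, with the block 0.078). Dnajc30, a mitochondrial J protein, differed by -0.31 (SE 0.0841, adjusted p = 0.243, with the block 0.109), and its labelled mutant arrays lay below control arrays of the same treatment in both treatments.

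Promoters of Dnajb4 and Hspb6, and of Dnajc27, which did not pass, are shown because CREB and CREM bind the cAMP response element, whose palindrome is TGACGTCA and whose core is TGACG. The windows are RefSeq sequences of GRCm38.p6 from 250 bases before to 50 after the annotated start, 5′ to 3′ on the gene's strand, with TGACG and its reverse complement CGTCA in capitals. They are chr12:4082324-4082623 (plus strand) for Dnajc27, chr3:152210034-152210333 (minus strand) for Dnajb4 and chr7:30552290-30552589 (plus strand) for Hspb6.
Dnajc27: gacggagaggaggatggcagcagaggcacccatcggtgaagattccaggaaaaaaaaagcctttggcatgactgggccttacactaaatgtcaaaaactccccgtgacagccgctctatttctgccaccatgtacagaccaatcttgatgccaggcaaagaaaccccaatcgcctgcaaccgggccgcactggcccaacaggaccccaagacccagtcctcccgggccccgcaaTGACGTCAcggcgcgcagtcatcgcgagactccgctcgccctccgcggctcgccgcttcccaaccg
Dnajb4: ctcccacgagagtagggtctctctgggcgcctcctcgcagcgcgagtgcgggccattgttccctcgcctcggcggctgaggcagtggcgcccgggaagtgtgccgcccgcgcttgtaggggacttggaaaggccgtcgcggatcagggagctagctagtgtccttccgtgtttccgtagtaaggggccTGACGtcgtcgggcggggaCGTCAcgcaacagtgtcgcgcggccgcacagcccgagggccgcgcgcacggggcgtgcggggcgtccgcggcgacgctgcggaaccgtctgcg
Hspb6: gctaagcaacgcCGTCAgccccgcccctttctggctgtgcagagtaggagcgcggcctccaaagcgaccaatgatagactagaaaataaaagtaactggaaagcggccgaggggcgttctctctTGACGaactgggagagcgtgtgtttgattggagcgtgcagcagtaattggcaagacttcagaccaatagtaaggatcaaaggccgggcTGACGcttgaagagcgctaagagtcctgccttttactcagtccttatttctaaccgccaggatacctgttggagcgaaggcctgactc
The Dnajc27 window holds the full palindrome beginning 16 bases before the start. The Dnajb4 window holds the core 62 bases before the start and its complement 43 bases before it, and the window of a second annotated Dnajb4 start holds the core 44 bases before it. The Hspb6 window holds the complement 238 bases and the core 126 and 38 bases before the start.

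Windows were found for 24 of the 31 genes, 33 in all, and windows of a gene with several starts can overlap. Searched on both strands, TGACGTCA stood in 1 of 33 windows, that of Dnajc27, against 1.79% of all 32851 windows and 2.97% of the 4949 windows of tested genes. The core TGACG, which is part of that palindrome, stood in 18 of 33 (54.5%, in 14 genes), against 20.8% of all windows and 30.9% of those of tested genes. The median GC content was 64.3% for these genes, 62.0% for tested genes and 52.7% for all. The heat shock element pair GAANNTTC, where N is any base, stood in 4 of 33 windows (12.1%), those of Bag3, Dnaja4, Dnajc27 and a second annotated start of Hspb6, against 7.86% of all and 5.03% of tested genes. A match is a description of the letters and not a bound site.

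With saline alone none of the 31 genes passed by limma, also with the block (0% and 0.142% of all probe sets). At an unadjusted p under 0.05 there were 4 of 31 (12.9%, against 3.88% of all), namely Dnajb4, Dnajc27 and Dnajc30 lower (2.45% of all) and Hspb6 higher (1.44% of all). With kainate none passed either (0.0632% of all, with the block 0.111%), and Dnajb4, Dnajc27, Dnajc30 (lower) and Hspb6 (higher) again had an unadjusted p under 0.05, against 4.67% of all, 2.51% lower and 2.16% higher. Without the arrays numbered 1 none passed with saline (0.0789% of all). The groups of 3 arrays did not overlap for 4 of 31 with saline, Dnajb4, Dnajc27, Dnajc30 and Hspa4l, all lower in labelled mutants (8.81% of all, 4.33% lower and 4.48% higher). With kainate they did not overlap for 8 of 31 (10.7% of all), of which Hspb6 and Dnajb14 were higher (3.09%) and Dnajb4, Dnajc1, Dnajc10, Dnajc18, Dnajc27 and Dnajc30 lower (7.63%). Dnajc10 exceeded the level of 4 in only 8 arrays, all control kainate arrays among them. For the dimmer tested Dnajb14 probe sets, means after kainate were 6.49 and 4.90 in controls and 6.26 and 5.17 in labelled mutants.

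Over both treatments 12 of 31 genes lay above 0, against 49.1% of all probe sets, and the median difference was -0.025 against -0.0026 for all. The Hsp70 superfamily ran from -0.17 to 0.02, the BAG proteins from -0.14 to 0.06 and both FKBPs from -0.04 to 0.02. Hspa4l, an Hsp110-type exchange factor, gave -0.45 with saline (SE 0.395, unadjusted p = 0.283) and 0.10 with kainate. In labelled mutants with saline it read 7.35, 7.003 and 6.65, below the 7.46, 7.42 and 7.46 of controls. Its further probe set gave -0.26 and -0.30.

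**Figure D2:**
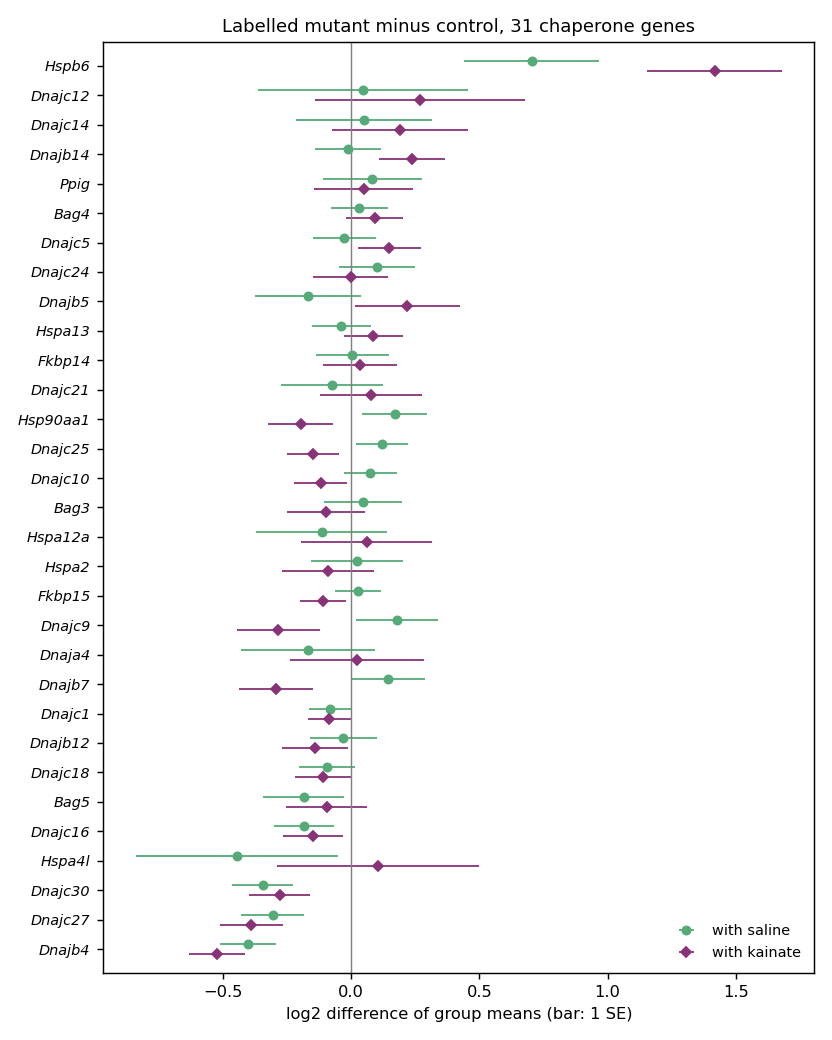
Log2 difference of labelled mutant minus control group means for the 31 genes with saline (circles) and with kainate (diamonds), each with a bar of 1 SE from limma, sorted by the mean of both. Hspb6 (0.70 and 1.42) stands at the top and Dnajb4 (-0.40 and -0.52) at the bottom.

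Kainate changed no folding gene by the test without the block and 2 with it. Dnajc30 was 1.28-fold higher after kainate over both genotypes (log2 difference 0.35, SE 0.0841) and Hspa12a, a divergent member of the Hsp70 superfamily, was 1.45-fold lower (-0.53, SE 0.181). Neither passed without the block (limma adjusted p = 0.117 and 0.226), and both passed with it (0.0372 and 0.0343). No other gene of the 31 passed in either fit. The 2 calls of 31 with the block stand against 7.63% of all probe sets, and the 0 without it against 0.41%. At an unadjusted p under 0.05 without the block there were 5 of 31, 2 higher and 3 lower (14.7% of all, 6.62% higher and 8.07% lower), and no gene had all 6 kainate arrays on one side of all 6 saline arrays (1.75% of all). Leaving out replicate 1 of labelled mutant kainate alone let both genes pass without the block (0.38, adjusted p = 0.0436, and -0.67, adjusted p = 0.0469).

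Dnajc30 read 7.14, 7.06 and 7.22 in control saline arrays and 7.47, 7.45 and 7.47 in control kainate arrays. In labelled mutants it read 6.98, 6.76 and 6.65 with saline and 7.06, 7.30 and 7.19 with kainate. Kainate arrays lay above saline arrays in both genotypes, with a difference of 0.32 (SE 0.119) in controls and 0.39 (SE 0.119) in labelled mutants. With each array centred on its median and the block, the averaged Dnajc30 call ended (0.31, adjusted p = 0.0992), while that of Hspa12a was kept (-0.58, adjusted p = 0.0475).

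Hspa12a read 9.28, 9.12 and 8.96 in control saline arrays and 9.03, 8.18 and 8.28 in control kainate arrays. The labelled mutant values were 8.999, 9.05 and 8.96 with saline and 9.08, 8.40 and 8.19 with kainate. The fall was larger in replicate numbers 2 and 3 than in number 1. Number 1 went from 9.28 to 9.03 in controls and did not fall in labelled mutants. Its kainate arrays (9.03 and 9.08) stayed among the saline values. A second Hspa12a probe set also fell with the block over both genotypes (-0.60, adjusted p = 0.0142), while its remaining probe sets gave -0.11 and 0.11. In number 1 that second probe set went from 7.49 to 7.15 in controls and from 7.41 to 7.01 in labelled mutants. The mean of interneuron markers (4 of 8 listed were on the array) and Clic6, the only choroid plexus marker there of 6 listed, ran lower after kainate in control arrays. By group means Gad2, Maf and Cnr1 fell in both genotypes, Gad2 from 6.50 to 5.24 in controls and from 6.56 to 5.72 in labelled mutants. Gad1 rose in controls (2.38 to 2.59). The mean of 4 interneuron markers, of which Gad1 was under the level, was 6.54 to 6.75 in control saline, 5.85 to 6.30 in control kainate, 6.52 to 6.75 in labelled mutant saline and 6.21 to 6.54 in labelled mutant kainate arrays. The choroid plexus marker Clic6 ran in the same order of groups from 6.28 to 6.72, 4.19 to 5.76, 5.30 to 7.02 and 5.08 to 6.83. The part of these markers in the kainate differences of Hspa12a and the genes that follow was not tested.

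Without the arrays numbered 1, 6 of 31 genes passed for kainate over both genotypes, against 22.3% of all probe sets. Higher were Dnajc30 (0.43, adjusted p = 0.00935) and Hspb6 (0.66, adjusted p = 0.00739). Lower were Hspa12a (-0.76, adjusted p = 0.000493), Dnajc14 (-0.67, adjusted p = 0.00996), Hspa4l (-0.56, adjusted p = 0.0167) and Hspa13 (-0.33, adjusted p = 0.0267). Dnajc14 encodes a J protein of the endoplasmic reticulum membrane, and Hspa13 is an Hsp70-like ATPase of microsomes. That fit holds 8 arrays. In controls alone it called Hspa12a, Hspa4l and Dnajc14, all lower (-0.81, -0.87 and -0.84, adjusted p = 0.00519, 0.0226 and 0.0336, 10.1% of all). In labelled mutants it called Hspa12a lower (-0.71, adjusted p = 0.00916) and Dnajc30 and Hspb6 higher (0.54 and 1.20, adjusted p = 0.0312 and 0.00635, 9.41% of all).

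Hspa4l and Dnajc14 split by replicate number in control kainate arrays. Hspa4l read 7.64, 6.82 and 6.31 there against 7.46, 7.42 and 7.46 with saline, and 7.91, 6.65 and 6.53 in labelled mutants after kainate. Dnajc14 read 5.80, 5.17 and 4.57 after kainate in controls against 5.62, 5.57 and 5.84 with saline. Array 1 was the highest of its kainate group for both genes, also for Dnajc14 in labelled mutants (5.71, 5.14 and 5.27). The second Hspa4l probe set gave 0.04 in controls, against -0.52 (SE 0.395, adjusted p = 0.555) for the brighter one.

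Hspa13 read 8.27, 8.52 and 8.25 with saline and 8.005, 8.08 and 7.96 with kainate in controls. In labelled mutants it read 8.29, 8.30 and 8.35 with saline and 8.26, 8.04 and 8.003 with kainate. The groups did not overlap in either genotype, with differences of -0.33 (SE 0.114, adjusted p = 0.424) and -0.21 (SE 0.114, adjusted p = 0.836), and over both the adjusted p was 0.176 (with the block 0.0573). Its second probe set gave -0.08 and -0.30. All 4 genes of the Hsp70 superfamily lay below 0 in controls, from -0.62 to -0.02, and 3 of 4 in labelled mutants, from -0.45 to 0.03. This holds for the brightest probe sets and all arrays, since Hspa2 gave 0.16 in controls without the arrays numbered 1 and further probe sets of Hspa12a and Hspa4l gave 0.08 and 0.04 there with all arrays.

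**Figure D3:**
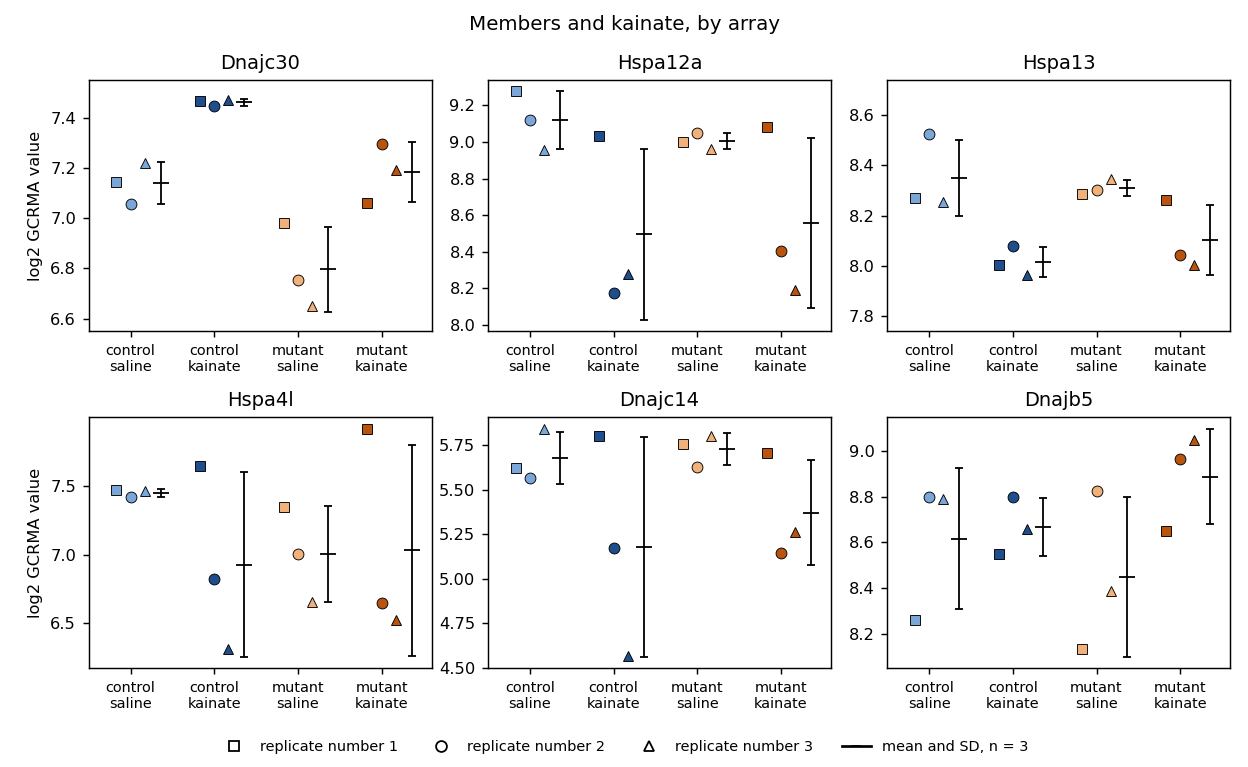
Log2 GCRMA values of Dnajc30, Hspa12a, Hspa13, Hspa4l, Dnajc14 and Dnajb5 in each array by group (mutant: labelled mutant), with symbols for the replicate number and a bar for the mean and SD of 3 arrays; each panel has its own axis. Squares mark the arrays numbered 1, which for Hspa12a read 9.03 and 9.08 after kainate while the other kainate arrays lie between 8.18 and 8.40.

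In controls no gene of the 31 passed by limma for kainate with or without the block (0.158% and 0.584% of all probe sets), and 7 of 31 had an unadjusted p under 0.05, 5 higher and 2 lower (22.6%, against 11.6% of all, 6.2% higher and 5.43% lower). The lower genes were Hspa12a and Hspa13, and the higher ones Dnajb4, Dnajc30, Dnajc25, Dnajb7 and Dnajc9. Dnajb7 and Dnajc9 exceeded the level of 4 in only 4 and 3 arrays, which include control kainate replicates 2 and 3, so they met it partly through the group where they were high and the count of 7 is not read against the share of all. Dnajb4 differed by 0.30 (SE 0.109, adjusted p = 0.424), and its control kainate arrays lay above all control saline arrays. The groups of 3 arrays did not overlap for 6 of 31 (19.4%, with 19.4% of all), 5 higher (13.1% of all) and Hspa13 lower (6.27% of all). Among the 5 was Hsp90aa1, which exceeded 4 in only 4 arrays, control kainate replicates 2 and 3 among them. The count of 6 is thus not read against the share of all either. In labelled mutants none passed (0.174% and, with the block, 0.363% of all), and Dnajc30 and Hspb6 had an unadjusted p under 0.05 (2 of 31, 6.45%, both higher, against 6.28% of all, 3.22% higher and 3.06% lower). The groups did not overlap for Dnajc30, which was higher (3.66% of all), and for Dnajc1, Dnajc24 and Hspa13, which were lower (5.46% of all), together 4 of 31 against 9.13%. There Hspb6 differed by 0.76 (SE 0.263, adjusted p = 0.706), and by replicate number the change was -0.12, 0.89 and 1.52.

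As a set, 18 of 31 genes lay above 0 in controls (53.3% of all) with a median of 0.05 against 0.02 for all, and 14 of 31 in labelled mutants (41.7% of all) with a median of -0.03 against -0.04. These counts depend on the scaling, since centring each array on its median shifted the median of all probe sets in controls from 0.02 to -0.12 and left 8 of 31 genes above 0, with 31.2% of all. In labelled mutants the count was 19 of 31 with centring, 18 of 31 with quantile normalization (median 0.015), 18 of 31 without labelled mutant saline replicate 3 (median 0.017) and 8 of 31 without the arrays numbered 1. Without control kainate replicate 2 the median in controls was 0.006. No direction of the set is read from these counts.

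Of 18 listed genes known to be induced by heat shock, only 5 had a probe set with 1 symbol on the array. None of the 5 passed for kainate, and Hsp90aa1 among them exceeded the level in only 4 arrays. Hspa1a, Hspa1b, Hspa8, Hsph1, Hspb1 and Dnajb1 were among the listed genes not measured. Neither a heat shock response nor its absence is thus read from the 5. Dnaja4 gave -0.34 in controls and -0.15 in labelled mutants, Dnajb4 0.30 and 0.18, Dnajb5 0.05 and 0.44, Hsp90aa1 0.27 and -0.09, and Bag3, a cochaperone of selective autophagy, 0.12 and -0.03. The second Dnaja4 probe set differed in sign in labelled mutants. Its means were 7.14 with saline and 7.02 with kainate in controls, and 6.89 and 6.98 in labelled mutants. Dnajb5, a class B J protein, read 8.26, 8.80 and 8.79 with saline and 8.55, 8.80 and 8.66 with kainate in controls. In labelled mutants it read 8.13, 8.83 and 8.39 with saline and 8.65, 8.97 and 9.05 with kainate, a difference of 0.44 that was higher in all 3 replicate numbers (SE 0.205, adjusted p = 0.79, with the block 0.168).

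Of 18 listed chaperones of the endoplasmic reticulum 3 were over the level, and none passed. Dnajc1, a J protein of its membrane, gave -0.03 in each genotype. Dnajc10, which reduces disulfides there, gave 0.13 in controls and -0.06 in labelled mutants, and Fkbp14 gave -0.14 and -0.11. Among J proteins of that membrane outside this list, Dnajc14 gave -0.50 in controls and -0.36 in labelled mutants, and it passed over both genotypes without the arrays numbered 1, as given above. Dnajb12 and Dnajb14 gave 0.05 and -0.11 in controls and -0.06 and 0.13 in labelled mutants. The probe sets of Dnajb14 disagreed, with -0.64 and -0.02 in controls and -0.05 and -0.58 in labelled mutants for the dimmer ones.

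**Figure D4:**
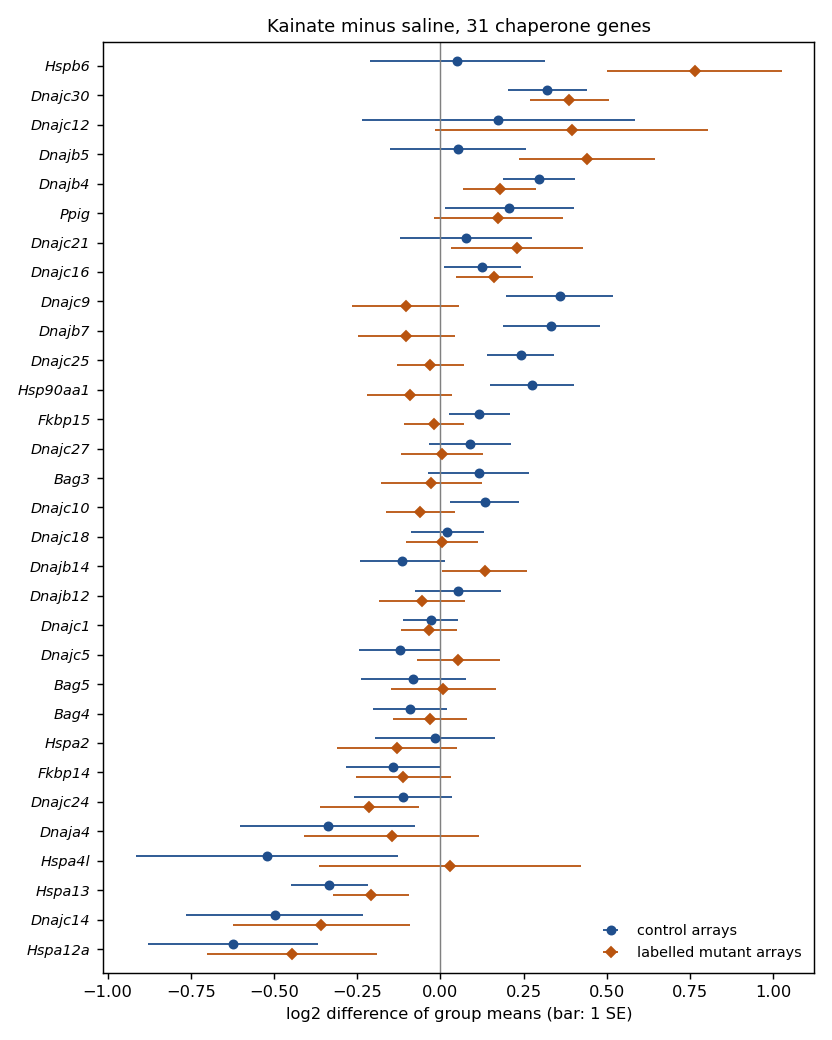
Log2 difference of kainate minus saline group means for the 31 genes in control arrays (circles) and labelled mutant arrays (diamonds), each with a bar of 1 SE from limma, sorted by the mean of both. Hspa12a lies lowest (-0.62 and -0.45) and Hspb6 highest (0.05 and 0.76).

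The difference between the kainate responses of the genotypes was tested directly. None of the 31 genes passed by limma, with or without the block or without the arrays numbered 1, and neither did any other probe set (0% in each). At an unadjusted p under 0.05 there were 0 of 31 (2.32% of all), and 4 of 31 with the block (12.9%, against 8.94% of all). Those 4 were Dnajb7, Dnajc9 and Hsp90aa1, at -0.44, -0.46 and -0.37 for labelled mutant minus control (lower for 6.44% of all), and Dnajb5 at 0.39 (higher for 2.49% of all). The largest difference belonged to Hspb6 (0.71, SE 0.372, adjusted p = 1, with the block 0.553).

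Dnajb7, Dnajc9 and Hsp90aa1 were dim. They exceeded the level of 4 in 4, 3 and 4 of 12 arrays, in each case in control kainate replicates 2 and 3 and labelled mutant saline replicate 3, so they met the level through the arrays where they were high. For this reason the count of 4 of 31 with the block is not read against the share of all. Dnajc10 and Dnajc25 exceeded it in 8 and 11 arrays, and the other 26 genes in all 12. The Hsp90aa1 probe set, for a cytosolic Hsp90 that heat induces, read 3.83, 3.94 and 3.71 with saline and 3.94, 4.09 and 4.26 with kainate in controls. Dnajc9, a J protein that also binds histones, read 3.64, 3.94 and 3.61 with saline and 3.85, 4.08 and 4.33 with kainate. All 5 dim probe sets read lowest in control saline replicate 3, apart from Dnajc9 (labelled mutant kainate replicate 1), and 4 of 5 read highest in control kainate replicate 3. These control arrays had the lowest (3.77) and the highest (4.07) median of the 12, and the part of the array median in these values was not tested. With each array centred on its median, the kainate difference in controls was 0.13 for Hsp90aa1, 0.19 for Dnajb7 and 0.22 for Dnajc9, against 0.27, 0.33 and 0.36 as deposited.

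**Figure D5:**
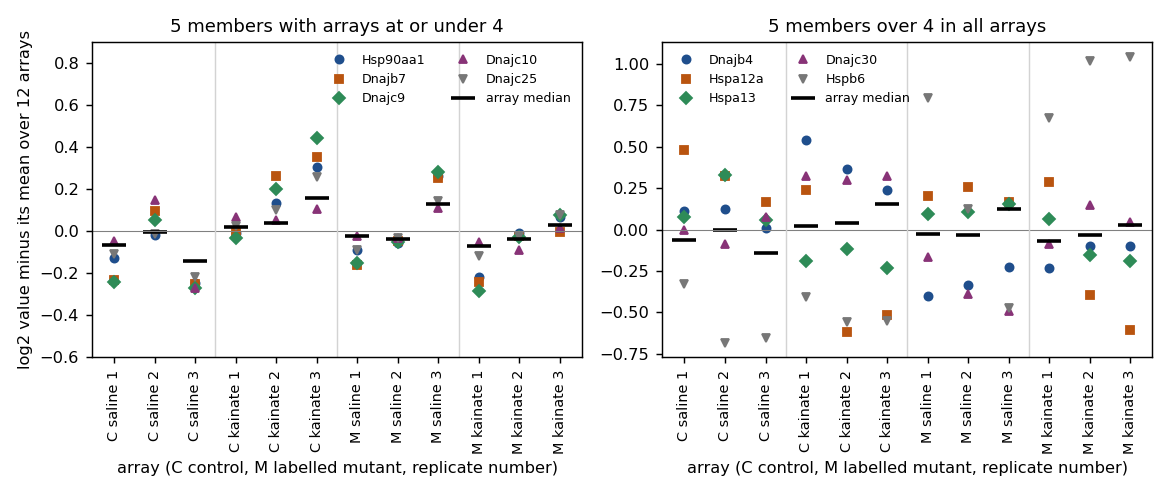
Log2 value minus its mean over 12 arrays, by array, for the 5 genes with arrays at or under 4 (left) and for 5 genes over 4 in all arrays (right), with the array median drawn the same way as a black bar. The dim genes lie highest in control kainate replicate 3, where the array median is highest, except Dnajc10, whose highest value is in control saline replicate 2.

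The remaining genes gave no call in any of the 7 comparisons. Dnajc5, the cysteine string protein of synaptic vesicles, read 10.20 to 10.65 over the 12 arrays, and kainate gave -0.12 in controls and 0.05 in labelled mutants, with further probe sets from -0.12 to 0.14 and from 0.07 to 0.13. Hspa2, an Hsp70 known for its role in sperm formation, read 9.28 to 9.97 and gave -0.02 and -0.13. Bag4 and Bag5, exchange factors of Hsp70, gave -0.09 and -0.08 in controls and -0.03 and 0.01 in labelled mutants, and their further probe sets -0.13 and -0.34 and then -0.26 and -0.06. Ppig, a nuclear cyclophilin linked to splicing, gave 0.21 and 0.17 (further probe set 0.29 and -0.09), and Fkbp15, an FKBP of endosomes, 0.12 and -0.02. Dnajc12, a cochaperone of aromatic amino acid hydroxylases, was high in replicate 1 of labelled mutant kainate (6.72, against 4.78 and 5.26 in its group and 4.91 to 5.74 elsewhere), and without that array its difference in labelled mutants changed from 0.39 to -0.17. Dnajc24, which takes part in diphthamide synthesis, gave -0.11 and -0.21, Dnajc21 of ribosome assembly 0.08 and 0.23, Dnajc16 0.13 and 0.16, Dnajc18 0.02 and 0.00, and Dnajc25 0.24 and -0.03.

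The other 12 genes, with 15 probe sets, did not reach the level. Among them Cct4, a subunit of the cytosolic chaperonin, read 3.05 to 3.76, Ppih, a spliceosomal cyclophilin, 2.91 to 3.197, and Dnajc3, an inhibitor of the kinase PERK, 3.67 to 4.05 in its brightest probe set. Dnajb2, Dnajb13, Dnajc22, Fkbp11, Hspa12b, Hspa14, Hspb7, Hspb9 and Pdia2 complete this set. A probe set at this level shows neither presence nor absence of the transcript.

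Of 74 further genes of protein folding, 24 were measured. Over both genotypes none passed for kainate without the block, and 3 passed with it, all lower (7.63% of all probe sets passed). These were Sdf2l1, a component of an endoplasmic reticulum chaperone complex (-1.11, SE 0.25, adjusted p with the block 0.0137), St13, an Hsp70 cochaperone also called Hip (-0.62, 0.0429), and Cdc37l1, a relative of the Hsp90 kinase cochaperone Cdc37 (-0.55, 0.0153). Cdc37l1 also passed with the block in controls (-0.75, adjusted p = 0.0489, 0.584% of all), and its further probe sets gave 0.10, 0.21 and 0.18 there. For kainate in labelled mutants, for the difference of responses and for the 3 genotype comparisons none of the 24 passed by limma, also with the block, and without the block 1 of 24, Sdf2l1 in labelled mutants, had an unadjusted p under 0.05 in any of them (6.28% of all in labelled mutants). For kainate 6 of 24 did in controls (11.6% of all) and 6 of 24 over both genotypes (14.7% of all).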

How the data were processed

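Hippocampal RNA was measured on 12 Affymetrix MG-U74B arrays, 3 in each of 4 groups taken from the sample titles. Per the submitters' processing notes, which name R 2.4.1 and GCRMA, the authors computed 1 value per probe set and array; the deposited values were taken as log2 from their range. Settings, build and annotation: not given in the sources used here. Of 12477 table entries 66 were control probe sets. Names came from the platform annotation, where 10581 probe sets had 1 symbol, 178 several and 1652 none. A model with 1 mean per group was fitted to all 6334 probe sets over 4 in at least 3 arrays with limma 3.58.1 in R 4.3.3 (eBayes with intensity trend), with Benjamini-Hochberg adjustment over all of them at 0.05 within each of 7 comparisons.

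The replicate number served as the block. Deviations from the group means correlated above 0.1 in each of the 18 pairings of like-numbered arrays across groups (r from 0.361 to 0.881). For a number 2 set against a number 3, r ran from 0.309 to 0.583. This range also exceeds 0.1 and overlaps the first, so that cutoff alone cannot show pairing by number. All 12 arrays correlated best with their own number. The labels call the replicates biological, without a meaning for the number. Blocked values stand where a call changes. Named genes were those that passed in either fit, the 5 highest and 5 lowest differences of each comparison, the brightest of each family, and members of short lists of heat-induced and endoplasmic reticulum chaperones. The genes, lists and tests were chosen with earlier results of these data known. Alternatives covered filter, scaling, spread model, block, probe sets and arrays left out. The fit without the block was tested on simulated data with independent noise in each array, and the fit with the block was not tested in this way.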

Additional observations from a re-analysis of the deposited data

How the results depend on the processing

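Counts of the 31 genes that passed changed with the fit. For kainate over both genotypes the count of 0 became 2 with the replicate number as a block, 2 with the block and quantile normalization, and 1 with the block and each array centred on its median, a combination chosen after seeing the data. For labelled mutant against control over both treatments the count of 1 became 2 with the block, 2 with the block and quantile normalization, 2 with the block and centring, 2 with values over 5 in at least 3 arrays, 2 without the intensity trend, and 0 without a filter or with centring. Quantile normalization alone gave 1 there, Hspb6 in place of Dnajb4. In fits that left out 1 array, or all arrays numbered 1, the count ran from 0 to 3 for kainate in controls, from 0 to 3 in labelled mutants, from 0 to 6 over both genotypes, from 0 to 1 for genotype with kainate and from 0 to 1 for genotype over both treatments. The upper ends of the 3 kainate ranges came without the arrays numbered 1. The counts of 0 for genotype with saline and for the difference of responses stayed at 0 in every fit run.

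Some differences that did not pass changed sign when 1 array, or all arrays numbered 1, were left out. Dnajc12 ran from -0.31 to 0.80 for kainate in labelled mutants, from -0.35 to 0.63 for the difference of responses, from -0.30 to 0.67 for genotype with kainate, from -0.18 to 0.49 for kainate over both genotypes and from -0.13 to 0.36 for genotype over both treatments. The low ends -0.31 and -0.18 came without all arrays numbered 1, and without labelled mutant kainate replicate 1 alone the first of these was -0.17. Dnajc14 ran from -0.12 to 0.50 for genotype with kainate and from -0.032 to 0.28 over both treatments, Dnaja4 from -0.35 to 0.068 for kainate in labelled mutants, and Hspa4l from -0.39 to 0.0076 for genotype over both treatments. No cause was tested. The probe sets of Bag5 and Dnajc10 share probes with related sequences by their f suffix, and 5 dim genes lie near the level of 4.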
